A study of Arabidopsis thaliana with 18 samples.

Results

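The genes described here are those by which Arabidopsis seedlings perceive light and pass the signal on: photoreceptors, their partners, the repressors that act in darkness, and the transcription factors at the end of the pathway. They were chosen by symbol, with earlier results of these data known, and 38 of the 11437 genes listed in the deposited table qualified. The families were PHY, CRY, PHOT, PIF, PIL, BBX, COL, STO, HY, COP, SPA, DET, FHY, FRS, HFR, LAF, PKS, NPH, RPT, UVR8 and RUP. Phytochrome B, the cryptochromes, the phototropins, HY5 and COP1 were not analysed here. The study measured messenger RNA in whole Arabidopsis thaliana seedlings of the Col-0 ecotype, aged 14 days and grown on 1/2MS medium under 12 h of light and 12 h of darkness. Untreated seedlings were collected at ZT0, just before the lights came on (ZT, zeitgeber time, counts hours from lights on). All other seedlings were moved at ZT0 to fresh medium and were collected at ZT2. The medium held the solvent DMSO at 0.1%, or DPI at 10 µM, pentamidine isethionate (PI) at 25 µM, AEG3482 (AEG) at 12.5 µM, or Tyrphostin AG879 (TYR) at 2 µM. The series title presents the chemicals as modifiers of sugar signalling. Each of the 6 groups had 3 libraries, and all plants carried the same genotype.

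In darkness the COP, DET and SPA proteins mark factors that promote the light response for destruction, while phytochrome interacting factors (PIFs) accumulate and drive growth. Light converts phytochromes, cryptochromes and the UV-B receptor to their active forms, which inactivate those repressors and remove PIF proteins. B-box proteins (BBX), named for their zinc-binding domain, act downstream and either help or oppose the factor HY5. Many genes of the pathway are also under the circadian clock, so that their transcripts change around dawn.

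The listed genes together received 3156987 to 3249696 counts in a library, and none of the replicate pairs agreed within sampling noise. Markers of green tissue were high in every library, with RBCS2B between 4087 and 6798 TPM, and the root marker PYK10 was also present at 606 to 1516 TPM. The root markers TIP2;3, EXPA7 and PRP3 reached no more than 4.73, 1.96 and 0.58 TPM and were at 0 in at least 1 library each, and GL2 lay between 1.97 and 9.87 TPM. Of the 15 ZT2 libraries, 5 stood apart in FSD1, an iron superoxide dismutase gene: DMSO replicate 1, DPI replicate 1, PI replicate 1, AEG replicate 1 and TYR replicate 3 held 961 to 1675 CPM (counts scaled to library size). The untreated libraries held 1694 to 1749 CPM of FSD1, and each of the other ZT2 libraries held at most 15 counts. Counts of members called are also given without those 5 libraries. The labels do not say whether replicates came from separate cultures, so p-values measure the spread between these libraries, which may be technical.

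The first comparison, DMSO at ZT2 against untreated seedlings at ZT0, asked how the light-signalling transcripts changed over the first hours of the day. Light, transfer to fresh medium, solvent and time of day changed together between these groups and cannot be told apart. Of the 38 members, 37 had enough counts to be tested, and 20 of these (54.1%) were called at an adjusted p under 0.05 (edgeR quasi-likelihood test, Benjamini-Hochberg adjustment over 9006 genes). Over all genes tested, 35.6% were called. Tissue markers moved at dawn as well: of 3 shoot markers tested PSAF rose (log2 fold change 0.33, SE 0.12, adjusted p = 0.0365 by edgeR), and of 3 root markers tested GL2 fell by 0.90 on the log2 scale (SE 0.25, adjusted p = 0.00905 by edgeR). The summed level of the 3 shoot markers in the table was 10930 to 12870 TPM in untreated libraries and 12020 to 14440 TPM with DMSO, and that of the 5 root markers 1014 to 1531 and 881 to 1124 TPM, with overlapping ranges. The part of tissue makeup in the members' changes was not tested. Of the members, 11 were higher at ZT2, against 19.6% of all genes, and 9 were lower, against 16% of all genes. A change of at least 2-fold was called for 12 members (32.4%), against 14.6% of all genes. The median log2 fold change of the members was 0.079 and that of all genes 0.015, while the median absolute change was 0.455 for members and 0.408 for all genes. The number called was 22 without the 5 libraries high in FSD1, where 3149 of all 9059 genes tested were called. It was 13 with replicate number 2 removed throughout, where 1709 of all 9032 genes tested were called. By role, the transcription factors supplied most calls: 4 of 7 bHLH genes were higher and none lower, and all 10 B-box genes were called, 6 higher and 4 lower. The 2 photoreceptor genes among the members fell, and of the 5 COP, DET and SPA genes 1 rose.

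**Figure D1:**
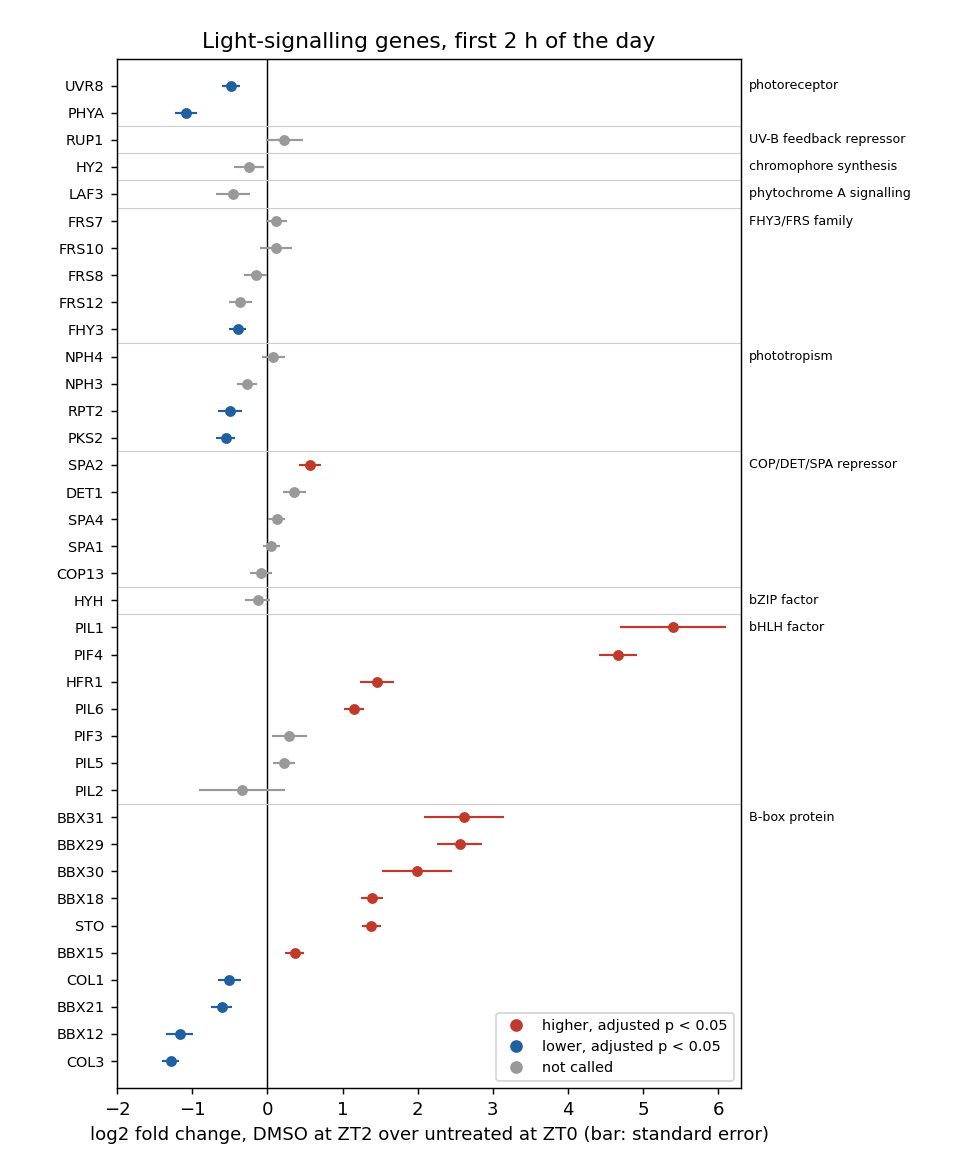
Log2 fold change of the 37 tested members between DMSO at ZT2 and untreated seedlings at ZT0 (points, bars are the standard error), grouped by role; red marks genes called higher, blue genes called lower and grey genes not called at an adjusted p under 0.05. PIL1 and PIF4 lie farthest to the right, at 5.39 and 4.66, the B-box genes split into 6 higher and 4 lower, and PHYA and UVR8, the photoreceptor genes among the members, lie left of 0.

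The promoters of 6 genes that recur below are shown to let the reader see the sequence before the gene start next to the change. They were the bHLH genes PIF4 and PIL6 and the B-box genes BBX30 and STO, which rose, and the photoreceptor gene PHYA and the B-box gene COL3, which fell. Each sequence is the 300 bases before the annotated gene start in RefSeq TAIR10.1, read 5′ to 3′ on the strand of the gene. Capitals mark a G-box, CACGTG, which PIF and HY5 proteins are known to bind, or an evening element, AAAATATCT, known from clock-controlled promoters. Every called member with either motif is among the 6, so these windows do not show how common the motifs are among members. The windows are chr2:17885801-17886100 (plus strand), chr3:21830838-21831137 (minus strand), chr4:8708541-8708840 (plus strand), chr1:1829984-1830283 (minus strand), chr1:3100820-3101119 (minus strand) and chr2:10566536-10566835 (plus strand), and none of them overlaps another annotated gene.
PIF4: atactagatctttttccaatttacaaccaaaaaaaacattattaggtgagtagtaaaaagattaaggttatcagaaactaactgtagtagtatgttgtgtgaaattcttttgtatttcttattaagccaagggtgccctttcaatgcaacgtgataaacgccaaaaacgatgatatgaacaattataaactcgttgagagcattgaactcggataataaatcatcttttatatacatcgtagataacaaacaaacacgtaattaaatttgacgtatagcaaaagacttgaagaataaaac
PIL6: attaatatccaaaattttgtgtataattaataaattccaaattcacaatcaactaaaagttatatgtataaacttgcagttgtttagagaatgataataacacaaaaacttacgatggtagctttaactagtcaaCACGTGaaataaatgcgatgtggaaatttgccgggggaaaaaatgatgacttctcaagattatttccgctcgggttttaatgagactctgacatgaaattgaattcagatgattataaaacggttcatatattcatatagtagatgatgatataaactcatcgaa
BBX30: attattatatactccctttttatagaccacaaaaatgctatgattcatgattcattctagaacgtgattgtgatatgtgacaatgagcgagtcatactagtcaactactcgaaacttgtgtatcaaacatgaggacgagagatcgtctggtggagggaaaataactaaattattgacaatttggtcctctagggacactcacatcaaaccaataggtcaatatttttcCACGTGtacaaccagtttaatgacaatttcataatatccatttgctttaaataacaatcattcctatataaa
STO: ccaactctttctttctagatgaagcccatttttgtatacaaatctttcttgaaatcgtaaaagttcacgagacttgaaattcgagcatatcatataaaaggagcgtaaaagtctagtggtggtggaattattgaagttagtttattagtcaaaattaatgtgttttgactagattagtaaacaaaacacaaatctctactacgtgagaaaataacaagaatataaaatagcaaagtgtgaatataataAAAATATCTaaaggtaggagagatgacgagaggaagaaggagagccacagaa
PHYA: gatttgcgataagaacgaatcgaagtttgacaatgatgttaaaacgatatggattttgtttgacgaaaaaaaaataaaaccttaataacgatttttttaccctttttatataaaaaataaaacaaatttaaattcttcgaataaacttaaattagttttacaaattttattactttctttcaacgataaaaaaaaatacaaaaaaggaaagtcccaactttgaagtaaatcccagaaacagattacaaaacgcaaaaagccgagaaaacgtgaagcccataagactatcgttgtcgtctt
COL3: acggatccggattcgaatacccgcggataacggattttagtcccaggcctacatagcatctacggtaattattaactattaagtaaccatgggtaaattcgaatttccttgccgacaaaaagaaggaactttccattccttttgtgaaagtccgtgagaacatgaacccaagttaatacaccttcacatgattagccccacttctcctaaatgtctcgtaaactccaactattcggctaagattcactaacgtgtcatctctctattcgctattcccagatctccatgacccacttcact

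Both motifs were searched on both strands, and their letters do not allow an overlap between them. The G-box stood in the window of 4 of the 38 members (10.5%), against 7.09% of 27443 protein-coding genes on the 5 nuclear chromosomes. It began at -72 from the gene start in BBX30, at -165 in PIL6, at -79 in HY2 and at -129 and -75 in FHL. Among the 11 members higher at ZT2 the G-box was found in 2, and among the 9 lower in 0. The evening element was found in 1 member, STO, at -52, and in 2.79% of all windows. A match is a string of letters and not a shown binding site.

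Both photoreceptor genes among the members were lower at ZT2 (gene positions here and below are those of RefSeq TAIR10.1). PHYA (AT1G09570, chr1:3095160-3100819, minus strand) encodes phytochrome A, the receptor of far-red light, whose protein accumulates in darkness and is degraded in light. Its transcript stood at 296, 290 and 275 CPM in the untreated libraries and at 138, 133 and 136 CPM with DMSO. All 15 ZT2 libraries, from 83.9 to 160 CPM with a median of 124, lay below the lowest untreated library. The log2 fold change was -1.08 (SE 0.15, adjusted p = 1e-05 by edgeR). In TPM, which allows genes to be compared, the level went from 50.0 ± 0.81 to 23.2 ± 1.85 (SD, n = 3). UVR8 (AT5G63860, chr5:25554416-25559499, minus strand), the UV-B receptor, stood at 187, 202 and 156 CPM in untreated seedlings and at 123, 153 and 115 CPM with DMSO. The groups did not overlap, although the lowest untreated and the highest DMSO library were close, and the log2 fold change was -0.48 (SE 0.12, adjusted p = 0.00467 by edgeR). Removing replicate 1 throughout ended the UVR8 call (adjusted p = 0.0848 by edgeR). In whole seedlings, fewer cells of a type and less RNA per cell cannot be told apart.

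Genes that act close to the photoreceptors changed little or were not called. RUP1 (AT5G52250), which returns UVR8 to its inactive form, had 15.1, 27.5 and 14.2 CPM in untreated seedlings and 23.5, 19.8 and 23.2 CPM with DMSO, with overlapping groups (adjusted p = 0.51 by edgeR). HY2 (AT3G09150), the enzyme that makes the phytochrome chromophore, had a log2 fold change of -0.25 (SE 0.20, adjusted p = 0.365 by edgeR), which was -0.51 without the libraries high in FSD1 (adjusted p = 0.0494 by edgeR). FHL (AT5G02200), which carries phytochrome A into the nucleus, was too low to be tested, with at most 2.19 CPM in any library. FHY3 (AT3G22170) encodes a transposase-derived factor that activates FHL. It stood at 125, 146 and 144 CPM before dawn and at 106, 111 and 99.9 CPM with DMSO, and fell by 0.39 on the log2 scale (SE 0.12, adjusted p = 0.011 by edgeR). The call was lost without replicate 2 (adjusted p = 0.122 by edgeR) or replicate 3 (adjusted p = 0.126 by edgeR). The related genes FRS7, FRS8, FRS10 and FRS12, named FAR1-related sequences, were not called, with log2 fold changes from -0.36 in FRS12 to 0.12 in FRS7. FRS12 read 86.7, 82.8 and 93.6 CPM before dawn and 90.8, 57.0 and 57.5 CPM with DMSO. Without replicate 1 its log2 fold change was -0.62 and was called (adjusted p = 0.00724 by edgeR), and without the 5 libraries high in FSD1 it was -0.61 (adjusted p = 0.00208 by edgeR). Both of these fits lacked DMSO replicate 1 and so used the same DMSO libraries. Part of the FRS12 counts were not whole, so that reads may be shared with another feature. LAF3 (AT3G55850), a component of phytochrome A signalling, read 39.5, 57.1 and 56.9 CPM before dawn and 35.1, 26.8 and 49.9 CPM with DMSO, with a log2 fold change of -0.46 (SE 0.22, adjusted p = 0.12 by edgeR).

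The phototropism genes held the most abundant member. RPT2 (AT2G30520), a partner of phototropins in bending towards blue light, was at 871 ± 79.5 TPM in untreated seedlings and 598 ± 28.1 TPM with DMSO (SD, n = 3), above every other member in both groups. Its libraries read 2400, 2745 and 2422 CPM before dawn and 1798, 1749 and 1830 CPM with DMSO. It fell by 0.49 on the log2 scale (SE 0.16, adjusted p = 0.0226 by edgeR). The call was lost without replicate number 2 (adjusted p = 0.252 by edgeR). PKS2 (AT1G14280), a phytochrome kinase substrate that also binds phototropins, read 163, 166 and 163 CPM before dawn and 125, 105 and 106 CPM with DMSO. Its log2 fold change was -0.55 (SE 0.13, adjusted p = 0.00207 by edgeR), and no ZT2 library reached the untreated range. NPH3 (AT5G64330), the scaffold that works with RPT2, read 79.3, 72.8 and 75.8 CPM before dawn and 62.9, 59.9 and 66.5 CPM with DMSO. These groups did not overlap, but the log2 fold change was not called, at -0.27 (SE 0.14, adjusted p = 0.131 by edgeR). NPH4 (AT5G20730), the auxin response factor ARF7, had a log2 fold change of 0.08 (SE 0.16, adjusted p = 0.729 by edgeR).

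Among the member genes for repressors of the light response, 1 of 5 was called, where 35.6% of all genes tested were called. SPA2 (AT4G11110), a partner of the ubiquitin ligase COP1, read 53.4, 58.0 and 69.0 CPM before dawn and 89.5, 87.6 and 89.9 CPM with DMSO. It rose by a log2 fold change of 0.57 (SE 0.15, adjusted p = 0.0046 by edgeR), and the call was lost without replicate 1 (adjusted p = 0.0585 by edgeR) or replicate 2 (adjusted p = 0.056 by edgeR). Its relatives SPA1 (AT2G46340) and SPA4 (AT1G53090) had log2 fold changes of 0.05 (SE 0.11) and 0.12 (SE 0.11), with adjusted p of 0.752 and 0.432 (edgeR). SPA1 was the more abundant of the SPA genes, at 47.8 ± 2.45 TPM in untreated seedlings against 24.4 ± 2.53 for SPA4 and 10.9 ± 1.77 for SPA2 (SD, n = 3). DET1 (AT4G10180), a repressor that works with COP1, read 67.9, 72.8 and 64.9 CPM before dawn and 77.3, 96.6 and 89.9 CPM with DMSO. The DET1 groups did not overlap, yet its log2 fold change of 0.36 (SE 0.15) missed the threshold (adjusted p = 0.0638 by edgeR). It passed without replicate 1 (adjusted p = 0.0287 by edgeR) and without the libraries high in FSD1 (adjusted p = 0.00931 by edgeR). DMSO replicate 1 was left out of both fits, so they used the same DMSO libraries and are not separate support. COP13 (AT5G14250), a subunit of the COP9 signalosome also called CSN3, had a log2 fold change of -0.08 (SE 0.15, adjusted p = 0.702 by edgeR).

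The bHLH genes held the largest increases. PIF4 (AT2G43010, chr2:17886101-17889087, plus strand), a growth-promoting PIF that is also a hub of temperature and shade responses, read 10.2, 7.55 and 2.67 CPM in untreated seedlings and 149, 168 and 199.7 CPM with DMSO. Its lowest ZT2 library was 149 CPM and its highest 206 CPM, far above the untreated range. The log2 fold change was 4.66 (SE 0.25, adjusted p = 1.17e-10 by edgeR), and the level rose from 2.58 ± 1.33 to 65.4 ± 13.4 TPM (SD, n = 3). PIL6 (AT3G59060, chr3:21827905-21830837, minus strand), also known as PIF5, read 149, 179 and 176 CPM before dawn and 357, 328 and 438 CPM with DMSO. Unlike PIF4, it was well expressed before dawn, at 66.7 ± 7.70 TPM (SD, n = 3), and its log2 fold change was 1.16 (SE 0.14, adjusted p = 1.62e-06 by edgeR). With DMSO, PIL6 stood at 144 ± 27.4 TPM and was the most abundant of the PIF genes measured.

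The other PIF genes were not called. PIF3 (AT1G09530), which acts in seedling greening, read 30.8, 43.8 and 25.2 CPM before dawn and 24.4, 52.9 and 45.1 CPM with DMSO (log2 fold change 0.29, SE 0.23, adjusted p = 0.34 by edgeR). PIL5 (AT2G20180), also known as PIF1 and a repressor of seed germination, read 73.1, 76.4 and 68.1 CPM and then 84.2, 66.3 and 103 CPM (log2 fold change 0.22, SE 0.15, adjusted p = 0.277 by edgeR). PIL2 (AT3G62090), also known as PIF6, was close to the lower limit, with 3.08, 3.93 and 3.26 CPM before dawn and 4.69, 2.55 and 0.902 CPM with DMSO (adjusted p = 0.686 by edgeR). In all 3 genes the untreated and DMSO libraries overlapped.

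The atypical bHLH genes PIL1 and HFR1, known as early targets of shade and as partners that hold PIFs in check, were both higher at ZT2. PIL1 (AT2G46970, chr2:19295431-19297858, minus strand) had 1 count in the 3 untreated libraries together and 24, 21 and 11 counts with DMSO. Its ratio of DMSO to untreated was 57.6, with a 95% counting interval from 9.92 to 2310, and every ZT2 library held 9 to 24 counts. The fitted log2 fold change of 5.39 (SE 0.71, adjusted p = 6.57e-06 by edgeR) depends on the prior count because the untreated libraries were nearly empty. HFR1 (AT1G02340, chr1:465616-467880, minus strand) read 23.4, 23.3 and 15.4 CPM before dawn and 55.1, 63.1 and 52.9 CPM with DMSO. It rose by a log2 fold change of 1.46 (SE 0.23, adjusted p = 4.55e-05 by edgeR), and all ZT2 libraries, from 36.7 to 69.9 CPM, lay above the untreated ones. HYH (AT3G17609), the bZIP homologue of HY5, was among the more abundant members at 207 ± 24.7 TPM before dawn and 183 ± 13.3 TPM with DMSO (SD, n = 3), and its change was not called (adjusted p = 0.588 by edgeR).

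**Figure D2:**
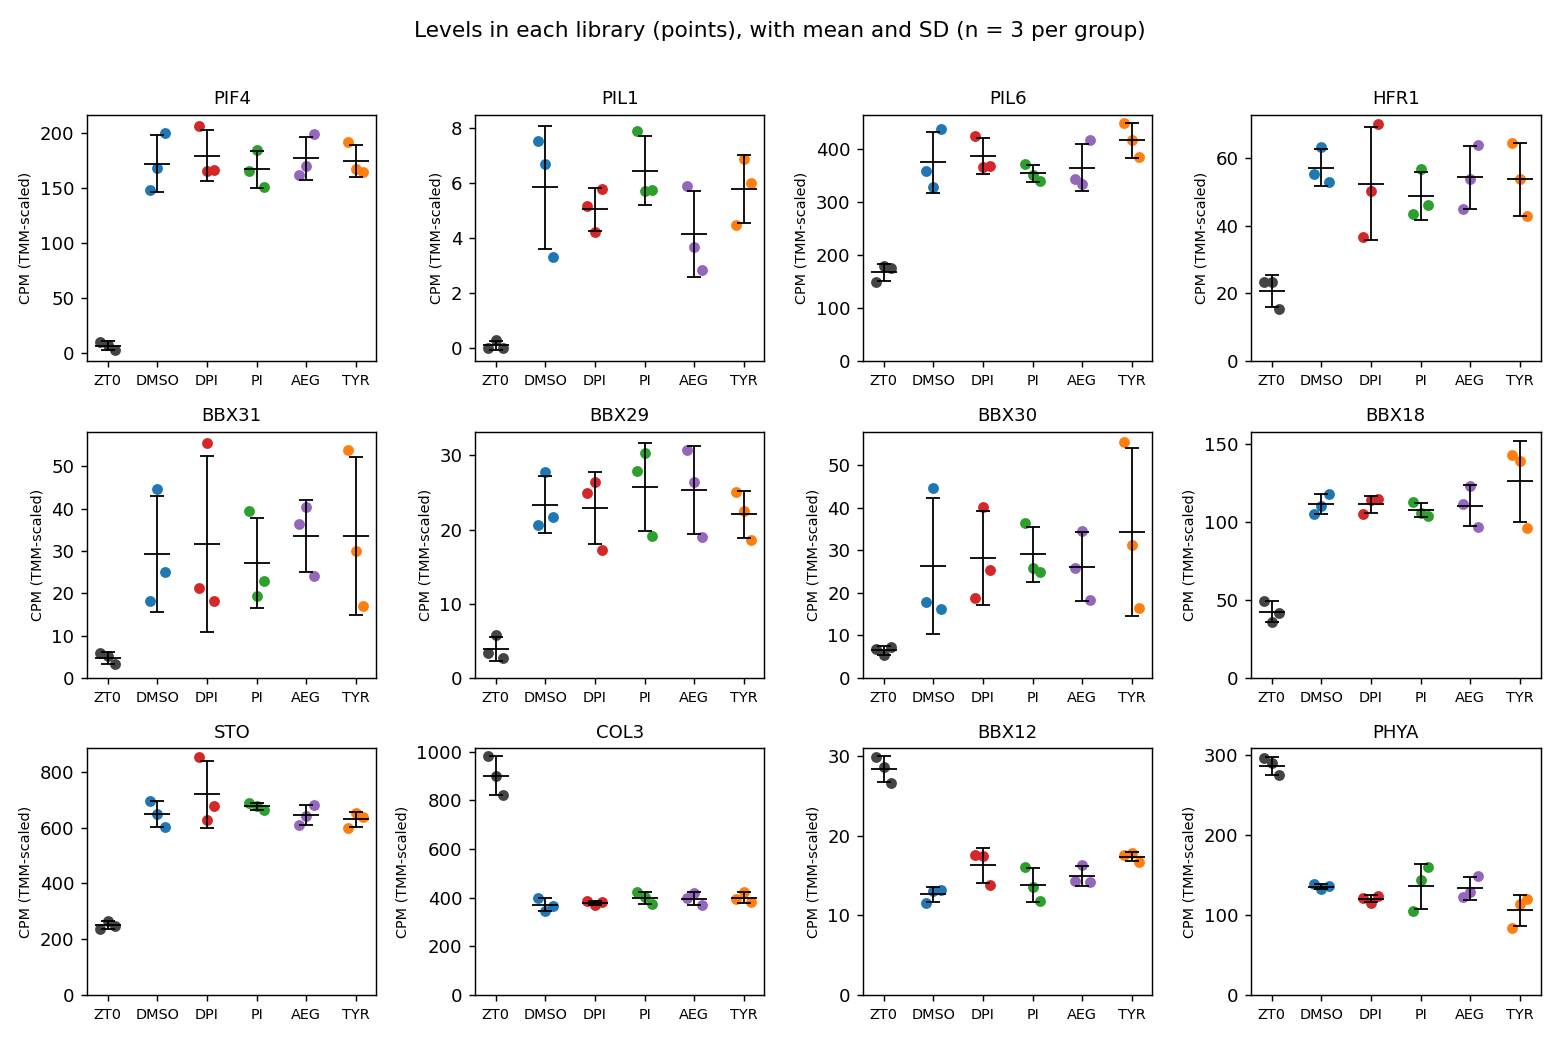
TMM-scaled CPM of the 12 members called with at least a 2-fold change at dawn, in each of the 18 libraries (points) with the mean and SD of each group of 3; ZT0 marks untreated seedlings and each vertical axis is linear with its own scale. In 9 panels all 15 ZT2 libraries lie above the untreated ones and in 3 panels (COL3, BBX12 and PHYA) all lie below, while the 5 ZT2 groups lie closer to one another than to the untreated group.

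All 10 B-box genes were called at dawn, where 35.6% of all genes tested were called, and they moved in both directions. The small B-box genes BBX30 and BBX31, which encode microproteins with little beyond the B-box itself, were low before dawn. BBX31 (AT3G21890, chr3:7708833-7709933, minus strand) read 5.86, 5.14 and 3.26 CPM in untreated seedlings and 18.2, 44.6 and 25.0 CPM with DMSO (log2 fold change 2.61, SE 0.53, adjusted p = 0.000647 by edgeR). BBX30 (AT4G15248, chr4:8708841-8709482, plus strand) read 6.79, 5.44 and 7.41 CPM and then 17.8, 44.6 and 16.2 CPM (log2 fold change 1.99, SE 0.46, adjusted p = 0.00219 by edgeR). In both genes DMSO replicate 2 stood well above its fellow libraries, and without replicate number 2 the log2 fold change of BBX30 was 1.26 and was not called (adjusted p = 0.0879 by edgeR). BBX29 (AT5G54470, chr5:22114304-22115539, minus strand), of the same structural group with a single B-box, read 3.39, 5.74 and 2.67 CPM before dawn and 20.7, 27.7 and 21.7 CPM with DMSO, and rose by a log2 fold change of 2.56 (SE 0.30, adjusted p = 1.5e-06 by edgeR).

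The B-box genes with 2 B-boxes and no CCT domain split. STO (AT1G06040, chr1:1828340-1829983, minus strand), also known as BBX24 and a negative regulator of the light response that opposes HY5, read 235, 264 and 249 CPM before dawn and 698, 648 and 604 CPM with DMSO. It rose by a log2 fold change of 1.38 (SE 0.12, adjusted p = 5.77e-08 by edgeR) and reached 350.3 ± 21.5 TPM (SD, n = 3). A gene on the opposite strand overlaps STO, and reads of both cannot be told apart because the labelled library kit does not mark strand. BBX18 (AT2G21320, chr2:9126263-9127987, plus strand), another negative regulator, read 49.3, 36.0 and 41.8 CPM before dawn and 105, 110.3 and 118 CPM with DMSO, a log2 fold change of 1.39 (SE 0.15, adjusted p = 7.03e-07 by edgeR). BBX21 (AT1G75540), a positive regulator that activates HY5, moved the other way, from 92.8, 109 and 96.0 CPM to 69.5, 65.0 and 60.8 CPM. It fell by 0.61 on the log2 scale (SE 0.14, adjusted p = 0.0025 by edgeR), and the call was lost without replicate number 2 (adjusted p = 0.0583 by edgeR).

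The remaining B-box genes are relatives of CONSTANS, the flowering regulator, with a CCT domain in addition to the B-box region. COL3 (AT2G24790, chr2:10566836-10568145, plus strand), also known as BBX4 and a positive regulator of light responses, read 982, 902 and 821 CPM before dawn and 399, 346 and 366 CPM with DMSO. It fell by 1.28 on the log2 scale (SE 0.11, adjusted p = 5.13e-08 by edgeR), and in TPM it went from 612 ± 54.6 to 239 ± 26.0 (SD, n = 3). In order of TPM, COL3 stood second to RPT2 before dawn, while with DMSO STO stood second and COL3 the third. BBX12 (AT2G33500, chr2:14187914-14190278, minus strand) read 29.9, 28.7 and 26.7 CPM before dawn and 11.6, 13.1 and 13.2 CPM with DMSO, and fell by 1.17 on the log2 scale (SE 0.17, adjusted p = 2.81e-05 by edgeR). COL1 (AT5G15850) read 410.2, 453 and 374 CPM before dawn and 248, 343 and 279 CPM with DMSO. It had a log2 fold change of -0.51 (SE 0.15, adjusted p = 0.0143 by edgeR), which was lost without replicate 1 (adjusted p = 0.117 by edgeR) or replicate 2 (adjusted p = 0.0665 by edgeR). BBX15 (AT1G25440) read 393, 337 and 336 CPM before dawn and 475, 412 and 482 CPM with DMSO. Its log2 fold change was the smallest called among the increases, 0.36 (SE 0.13, adjusted p = 0.0352 by edgeR), and the call was lost when any 1 replicate number was left out and without the 5 libraries high in FSD1 (adjusted p = 0.0668 by edgeR). The last of these fits used the same DMSO libraries as the fit without replicate number 1. Genes on the opposite strand also overlap BBX12 and COL1. In all, 10 of the 38 members had such an overlap, the others being NPH3, NPH4, HY2, FRS12, PIL2, PIL5 and SPA4.

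Over all 15 ZT2 libraries, whatever the medium, 20 of the 37 members (54.1%) did not overlap with the 3 untreated libraries, against 31.5% of all genes tested. Of these, 11 lay above the untreated libraries, against 16% of all genes, and 9 below, against 15.5%. The 9 below were the 9 called lower with DMSO. The 11 above were those called higher with DMSO, except that DET1 was among them and BBX15 was not. With DMSO alone, 22 members (59.5%) did not overlap, against 49.4% of all genes. The members varied by a median SD of 0.185 on the log2 scale among the 15 ZT2 libraries, where the median of all genes was 0.258. COL3 was the steadiest member with an SD of 0.084, from 346 to 424 CPM. PIL2, BBX31 and BBX30 varied most, with SDs of 0.63, 0.58 and 0.54, and PIL2 had the fewest counts of these.

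BBX30 and BBX31 tended to be high or low in the same ZT2 libraries, a pattern noticed after their values were seen. In DMSO replicate 2 both stood at 44.6 CPM, while DMSO replicate 1 held 17.8 CPM of BBX30 and 18.2 of BBX31. In TYR replicate 1 they stood at 55.4 and 53.9 CPM, in TYR replicate 2 at 31.2 and 30.0, and in TYR replicate 3 at 16.4 and 17.1. The widest gap was in DPI replicate 2, with 40.3 CPM of BBX30 and 55.6 of BBX31. The spread thus lay within groups and crossed them, with high and low libraries under the same label. The 5 libraries high in FSD1 held 16.4 to 36.4 CPM of BBX30, and the other ZT2 libraries held 16.2 to 55.4 CPM. The points share library and depth, and the cause of the spread was not tested.

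**Figure D3:**
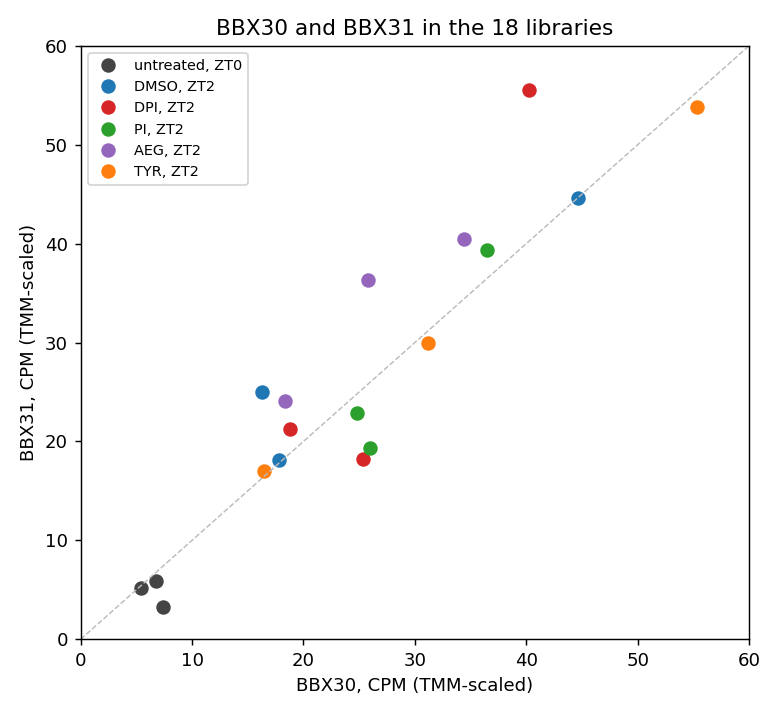
BBX31 against BBX30 in TMM-scaled CPM, 1 point per library coloured by group, with the dashed line marking equal values. The 3 untreated libraries lie at 7.41 CPM or less on both axes, and the 15 ZT2 libraries spread along the line from about 16.2 to 55.6 CPM, with the libraries of each group at different places along it.

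The second set of comparisons, each chemical against DMSO at ZT2, asked whether a chemical altered these transcripts. No member was called for DPI, PI, AEG or TYR (edgeR, 0% of all 9006 genes called in each). At an unadjusted p under 0.05 DPI, PI and AEG each had 1 member and TYR had 2, in all 5 of 148 tests. Over all genes 323, 223, 302 and 351 reached that level. DESeq2 also called 0 members for each chemical, and of all 11437 genes it called 1 for AEG and 0 for the others. Log2 fold changes of the members ranged from -0.72 to 0.52 with a median SE of 0.15. Among the 20 members called at dawn they ranged from -0.48 to 0.46. Small changes were not detectable at this depth and number of libraries, and moderate ones could be missed. In simulated counts for DMSO against untreated, 0% of 200 genes changed 1.5-fold were called, and 64% of 200 changed 2-fold.

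RUP1 had the smallest p of the members for both PI and AEG. It read 23.5, 19.8 and 23.2 CPM with DMSO, 13.5, 11.4 and 16.6 CPM with PI and 15.5, 13.7 and 11.1 CPM with AEG. Both groups lay below DMSO, with log2 fold changes of -0.68 (SE 0.25, adjusted p = 0.999 by edgeR) and -0.72 (SE 0.25, adjusted p = 1 by edgeR), but 2 of the 3 untreated libraries stood in the same range, at 15.1 and 14.2 CPM. The 2 comparisons share the DMSO libraries. With TYR, BBX12 read 17.6, 17.8 and 16.8 CPM against 11.6, 13.1 and 13.2 CPM with DMSO, a log2 fold change of 0.46 (SE 0.18, adjusted p = 0.997 by edgeR). With DPI, FRS8 (AT1G80010) read 69.5, 53.8 and 44.2 CPM against 40.7, 38.9 and 49.3 CPM with DMSO, groups that overlap (log2 fold change 0.38, SE 0.15, adjusted p = 0.99 by edgeR). PHYA with TYR read 83.9, 113 and 120.4 CPM, all below the 133 to 138 CPM of DMSO (log2 fold change -0.36, SE 0.15, adjusted p = 0.997 by edgeR). None of these differences passed the adjustment over all genes.

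PIF4 levels overlapped among the 5 media. Its mean CPM was 172 ± 25.8 under DMSO, 179.5 ± 23.3 under DPI, 167 ± 16.7 under PI, 177 ± 19.6 under AEG and 174.5 ± 14.9 under TYR (SD, n = 3). Its log2 fold changes against DMSO lay between -0.04 with PI and 0.06 with DPI, each with an SE of 0.19. COL3 had log2 fold changes from 0.03 with DPI to 0.11 with TYR (SE 0.11). FHY3 with AEG and TYR read 84.7 to 93.9 and 88.7 to 90.8 CPM, below the 99.9 to 111 CPM of DMSO, with log2 fold changes of -0.24 and -0.23 (SE 0.12; adjusted p = 1 and 0.997, edgeR).

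Several members had 1 library that widened the range of a chemical's group. With DPI, STO read 854, 628 and 677 CPM, and replicate 1 was the highest of all 15 ZT2 libraries. DET1 read 133, 83.8 and 88.8 CPM with DPI, again with replicate 1 as the highest. NPH4 read 175, 120.2 and 133 CPM with DPI and 85.4, 117 and 135 CPM with PI, so that replicate 1 was the highest library in the first group and the lowest in the second. HFR1 with DPI ran in the other direction, at 36.7, 50.2 and 69.9 CPM, and held both the lowest and the highest ZT2 library. PHYA with PI read 105, 143 and 160.4 CPM, around the 133 to 138 CPM of DMSO. RPT2 read 1455, 1654 and 2237 CPM with AEG, 1395, 1410 and 1975 CPM with DPI, and 1908, 1905 and 1926 CPM with PI. Replicate 1 with DPI and PI is also high in FSD1, and its part in these values was not tested.

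**Figure D4:**
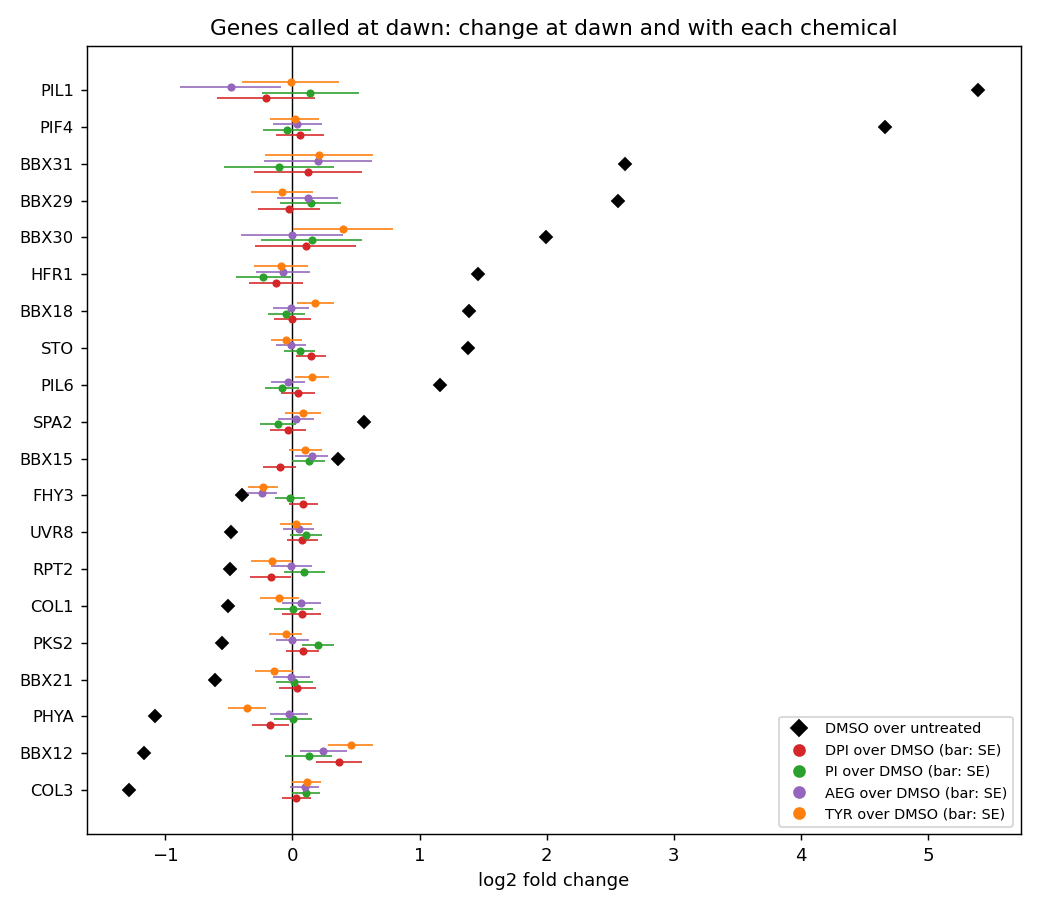
Log2 fold change of the 20 members called at dawn, for DMSO over untreated seedlings (black diamonds) and for each chemical over DMSO (coloured points, bars are the standard error). The diamonds run from -1.28 to 5.39, and the chemicals stay between -0.48 and 0.46 with no member called.

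Against the untreated libraries, which all these comparisons share, DPI gave 22 called members (11 higher, 11 lower), PI gave 20 (11 higher, 9 lower), AEG gave 23 (12 higher, 11 lower) and TYR gave 21 (12 higher, 9 lower). Over all genes tested 40.1%, 38%, 40% and 37.4% were called (edgeR), with 21.7%, 20.2%, 21.2% and 20.1% higher and 18.4%, 17.8%, 18.8% and 17.3% lower. In that order of chemicals, the log2 fold change of PIF4 was 4.72, 4.62, 4.70 and 4.68 (SE 0.25 each). That of COL3 was -1.25, -1.18, -1.19 and -1.17 (SE 0.11 each), and that of PHYA was -1.25, -1.08, -1.11 and -1.44 (SE 0.15 each). Without the 5 libraries high in FSD1 the members called were 20, 19, 22 and 22. Of all 9059 genes tested in that fit, 3258, 3133, 3269 and 3373 were called. DET1 was called with DPI, AEG and TYR, with log2 fold changes of 0.57, 0.41 and 0.51, and LAF3 with DPI, PI and AEG, with -0.60, -0.71 and -0.64. BBX15 was not called with DPI (adjusted p = 0.115 by edgeR) and RPT2 was not called with PI (adjusted p = 0.0586 by edgeR).

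Genes around the pathway that are not members by symbol were taken from a list of 70 symbols, of which 38 were in the table and 37 were tested. Of these 10 were higher at dawn and 10 lower (edgeR), where 19.6% of all genes were higher and 16% lower, and the median log2 fold change was -0.19. Among them were the blue-light receptor genes ZTL (log2 fold change -0.19, adjusted p = 0.264) and FKF1 (-0.50, adjusted p = 0.56), which were not called, and LKP2, which fell by 0.84 on the log2 scale (SE 0.14, adjusted p = 0.000109 by edgeR). ELIP2, which protects chloroplasts from excess light, read 12.0, 20.2 and 13.0 CPM before dawn and 144, 188 and 127 CPM with DMSO (log2 fold change 3.34, SE 0.36, adjusted p = 6.47e-07 by edgeR). F3H, an enzyme of flavonoid synthesis, read 46.9, 35.1 and 43.8 CPM and then 307, 370.3 and 312 CPM (log2 fold change 2.97, SE 0.19, adjusted p = 9.24e-10 by edgeR). MYB12, a factor that activates flavonol genes, rose from 0.617, 1.51 and 1.78 CPM to 4.07, 13.4 and 5.11 CPM (log2 fold change 2.49, SE 0.67, adjusted p = 0.00658 by edgeR). PORB, a protochlorophyllide oxidoreductase of chlorophyll synthesis, fell from 1024, 868 and 1029 CPM to 93.0, 103 and 91.4 CPM (log2 fold change -3.35, SE 0.21, adjusted p = 8.06e-10 by edgeR). The listed genes of the COP group outside the members held FUS9, also called COP10, which fell by 1.21 on the log2 scale (SE 0.23, adjusted p = 0.000393 by edgeR). No gene of the wider list was called for any chemical against DMSO.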

How the data were processed

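Poly(A) RNA of whole seedlings was sequenced as paired 150-base reads, per the labels' protocols. The authors deposited 1 table with an estimated count of reads (an expected count) and a TPM value per gene and library, per the file headers. The submitters' processing notes name HISAT2 2.2.1, RSEM 1.2.22 and genome build TAIR10, with no role or order. Of 29431 lines, 11981 named a gene and carried 11437 distinct gene identifiers, and the 544 repeats held the same values. The named genes held 48.37 to 49.01% of the total TPM in a library. Lines that named no gene were left out, so CPM values and shares of all genes rest on the named genes alone. All identifiers matched RefSeq TAIR10.1. Non-whole counts occurred in 6.99% of genes (tolerance 1e-06), and counts were rounded before testing.

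Members were the genes whose symbol met the stated families, 1 line per identifier. PKS2 was also listed under the locus of another gene, and its identifier was followed. The members and lists were chosen with earlier results of these data known. PAR2 and PMI2 in the wider list matched unrelated genes by letters and were removed.

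Counts were tested with edgeR 4.0.16 in R 4.3.3: TMM scaling, the filterByExpr filter (9006 genes kept), 1 quasi-likelihood fit over 18 libraries with 1 coefficient per group, and Benjamini-Hochberg adjustment within each comparison, called at an adjusted p under 0.05. Standard errors were derived from the fold change and the F statistic. CPM values were computed from the rounded counts, over the summed counts of the genes kept, with TMM factors. TPM values are as deposited. A floor of 3 counts corresponded to 0.923 to 0.950 CPM, here over the counts of all listed genes and without TMM factors. Like the ratio interval given for PIL1, this floor covers counting error only. The scripts were tested on simulated counts. Alternatives were DESeq2 1.42.0, other scaling, filters, fits and thresholds, and libraries left out.

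Genes named with values in every library were the photoreceptor and PIF genes tested and the 12 called members with the largest change and an average log2 CPM of at least 2. The rule added the member with the smallest p for each chemical and the 4 called genes of the wider list with the largest change. Other genes named with values were chosen after their values were seen. Promoters are credited to RefSeq TAIR10.1, and all 38 members had one.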

Additional observations from a re-analysis of the deposited data

How the results depend on the processing

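Of 525 results of single members under an alternative, at dawn or against DMSO, 490 kept both sign and call. Those at an adjusted p under 0.01 reused the main fold changes, so their sign could not change. With each replicate number left out of every group in turn, members called ranged from 13 to 18 at dawn. Against untreated they were 14 to 19 for DPI, 12 to 19 for PI and 15 to 20 for AEG and for TYR. Over all genes tested (9015 to 9032), 1709 to 2583 were called at dawn. In the same order of chemicals, 2324 to 2857, 2173 to 2561, 2299 to 2806 and 1985 to 2775 were called. Replicate number 2 gave the lowest count of members and of all genes each time. At dawn, the other alternatives gave 16 to 24 members, set here beside the genes called among all genes entered. There were 16 at an adjusted p under 0.01 (2151 of 9006) and 17 with at least 10 counts in every library (2892 of 7555). That filter removes PIF4, PIL1 and BBX29. The number was 20 with DESeq2 (3115 of 11437) and without TMM (3152 of 9006). It was also 20 with at least 1 count in any library (3096 of 11430) or with the 2 groups fitted alone (3204 of 8598). With FSD1 as a covariate it was 19 (2803 of 9006). With the mean of the 5 ZT2 groups in place of DMSO it was 24 (4472 of 9006). Leaving out the 5 libraries high in FSD1, an alternative chosen after seeing the data, gave 22 members (3149 of 9059 genes). Every alternative run gave 0 members for each chemical against DMSO. Over all genes these runs also called 0, except for 1 of 11437 with DESeq2 for AEG.

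At dawn, 6 members that were not called had a log2 fold change of the opposite sign under an alternative, and the cause was not tested. These were RUP1 (-0.153) and FRS8 (0.006) with the mean of the 5 ZT2 groups, and PIL2 (0.027) with FSD1 as a covariate. With each replicate number left out in turn, FRS10 ranged from -0.002 to 0.201, FRS7 from -0.059 to 0.239, PIL5 from -0.009 to 0.412 and PIL2 from -1.046 to 0.029.

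A fit with a replicate block called 20 members at dawn and 0 for each chemical against DMSO. Against untreated it called 20, 21, 24 and 22 for DPI, PI, AEG and TYR. Of all 9006 genes it called 3102 at dawn and 0 for each chemical against DMSO. In the same order against untreated it called 3513, 3349, 3524 and 3306. Same-numbered libraries did not deviate together in every pair (correlations from -0.311 to 0.128). Differently numbered libraries were not set beside them, so whether the numbers pair the libraries was not tested. At 3156987 to 3249696 counts of the listed genes per library, PIL2, PIL1 and FHL lie close to the floor of 3 counts.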
